A study of Sus scrofa with 21 samples.

Results

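The genes described here encode the contractile apparatus of smooth muscle. They are the 9 genes MYH11, ACTA2, MYL9, TAGLN, CNN1, LMOD1, MYLK, SMTN and DES, picked by their pig gene symbols out of the 24358 genes of the deposited count table, and all 9 were present in it. The study tested a 3D-printed microbrush, a device carried on a wire through an artery to brush endothelial cells off the vessel wall. RNA was sequenced in bulk from 21 libraries of 3 pigs. The microbrush gave 10 libraries, 5 from peripheral kidney arteries and 5 from peripheral liver arteries. A bare Nitinol wire (a nickel and titanium alloy), passed through the same kinds of artery without a brush, served as the negative control with 4 libraries, 2 per organ. The positive control was aorta taken out by surgery (4 libraries), and 3 libraries were made from whole blood. Pig 243K was sampled with the brush 5 times, with the wire 2 times and for blood 2 times, and pig 248K with the brush 5 times, with the wire 2 times and for blood once. All 4 aorta libraries came from the pig numbered 237053. No genotype, age or treatment of the pigs is given in the labels. Differences from aorta therefore cannot be told apart from differences between pigs or between kinds of artery. Since several libraries share a pig, every p-value below measures the spread between libraries.

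Smooth muscle cells of the artery wall shorten when myosin filaments pull on actin filaments. Calcium entering the cell switches on myosin light chain kinase, which phosphorylates the regulatory light chain and so starts the myosin motor. The genes of this apparatus are known to be switched on together by serum response factor and its partner myocardin, and mature smooth muscle cells are recognised by them. Several have near relatives or other uses outside smooth muscle: the regulatory light chain MYL9 and the kinase MYLK are also found in platelets, and desmin is shared with heart and skeletal muscle.

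Of the 9 members 3 build or switch the myosin filament. MYH11 (ENSSSCG00000000146) encodes the smooth muscle myosin heavy chain, MYL9 (ENSSSCG00000036402) the regulatory light chain, and MYLK (ENSSSCG00000011867) the kinase that acts on it. In the RefSeq annotation of Sscrofa11.1, matched by symbol, they lie at chr3:7002667-7143093, chr17:39788165-39795240 and chr13:136509878-136809674. Another 5 belong to the actin filament. ACTA2 (ENSSSCG00000010447, chr14:100868145-100886732) encodes smooth muscle alpha actin, and TAGLN (ENSSSCG00000015073, chr9:44561756-44567385) and CNN1 (ENSSSCG00000013614, chr2:70183370-70190756) encode the actin-binding proteins transgelin and calponin. LMOD1 (ENSSSCG00000031201, chr10:24165293-24194823) encodes leiomodin, which starts new actin filaments, and SMTN (ENSSSCG00000010017, chr14:47879317-47902700) encodes smoothelin, an actin-binding protein of contractile smooth muscle cells. DES (ENSSSCG00000020785, chr15:121428539-121435426) encodes desmin, the intermediate filament that ties the contractile units together. The values count reads over whole genes and were not assigned to exons.

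Library totals were 1144932 to 10188552 estimated counts for the microbrush, 1946286 to 11128400 for the wire, 1603229 to 3033008 for aorta and 5634 to 5301288 for blood. Blood 2 held 5634 counts over 302 genes with none on a member, and microbrush 4, a liver library, had counts for 3831 genes, so results that rest on them are also given without them. Of 10 endothelial markers 8 were in the table, among them PECAM1, KDR and CDH5. Their sum was 216 to 999 counts per 1000000 (CPM) in the microbrush libraries. It was 247 to 775 CPM on the wire, 131 to 246 CPM in aorta and 0 to 240 CPM in blood. Single markers did not all follow the sum. In microbrush 4, with a sum of 854 CPM, PECAM1 was 403 CPM and KDR 352 CPM, but CDH5 was at 0. In wire 3, with a sum of 562 CPM, they were 210 and 306 CPM, with CDH5 at 0.0899 CPM. Microbrush 6, with the highest sum, had 471 CPM of PECAM1, 264 CPM of KDR and 70.0 CPM of CDH5. The part of endothelial cells in these sums was not tested. Haemoglobin HBB had a median of 683 CPM on the brush, 6223 CPM on the wire, 18.1 CPM in aorta and 35913 CPM in blood.

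Contractile genes took up a large and very uneven share of the microbrush libraries and a small, even share of the wire libraries. On the brush the 9 genes together held from 0.314% to 10.0% of a library's counts, with a median of 1.82% (mean 3.13% ± 3.46, SD, n = 10). In the wire libraries they held 0.307%, 0.261%, 0.356% and 0.182% (mean 0.277% ± 0.0738, n = 4). Most of that wire share was MYL9, which made up 57.5% to 84.2% of the member counts on the wire. MYL9 also made up 82.6%, 81.3% and 59.6% of them in microbrush 4, 6 and 8, against 1.63% to 2.28% in aorta. With haemoglobin and 2 abundant unnamed identifiers left out of the totals the wire mean was 0.460%, and microbrush 4 and 6 moved to 0.687% and 0.729%, against 0.352% and 0.448% before. These 2 identifiers held 2.66% to 48.4% of the counts on the brush, 26.6% to 49.2% on the wire and 5.34% to 8.34% in aorta. They remain in the totals behind every CPM value. The aorta libraries gave 3.03%, 3.53%, 4.16% and 4.91% (mean 3.91% ± 0.811, n = 4). Every aorta library lay above every wire library, whereas the brush ranged from inside the wire values to above the highest aorta value. In blood 1 and blood 3 the share was 0.0248% and 0.0294%, and in blood 2 it was 0 of 5634 counts, where the true share could be as high as 0.0532%. Wilson 95% intervals, which cover counting error only, ran from 9.98% to 10.1% for microbrush 5 and from 0.176% to 0.188% for wire 4. In these bulk samples, fewer smooth muscle cells and less of this RNA per cell cannot be told apart.

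**Figure D1:**
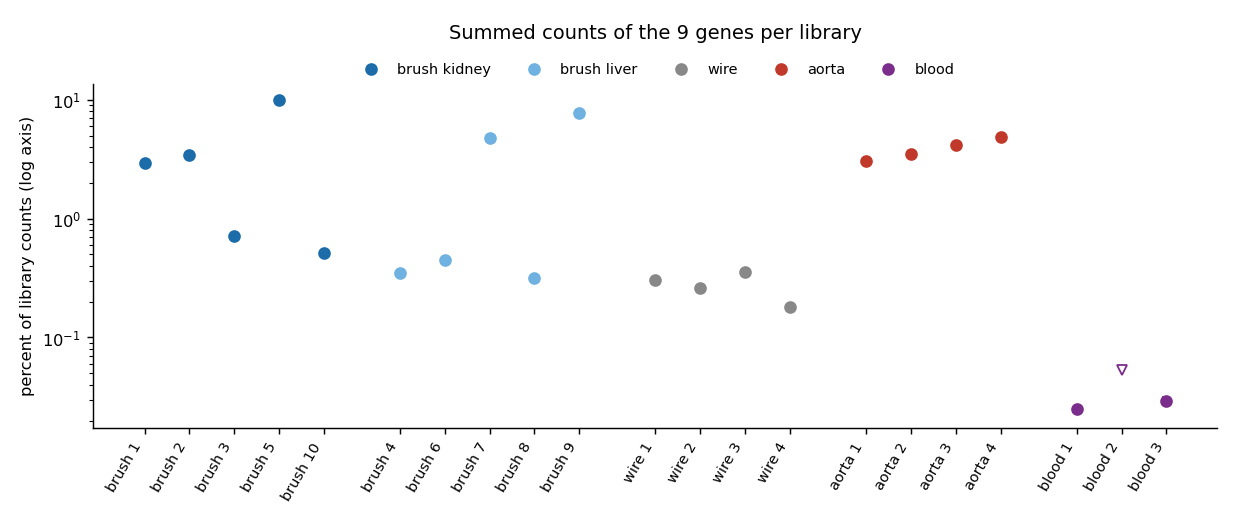
Percent of each library's counts that fell on the 9 contractile genes (log axis), 1 point per library, with the microbrush libraries split by organ; the open triangle is the limit of 0.0532% that 0 counts allow in blood 2. Microbrush 1, 2, 5, 7 and 9 lie at 2.94% or more, beside the aorta libraries at 3.03% to 4.91%, and microbrush 4, 6 and 8 lie at 0.314% to 0.448%, beside the wire libraries at 0.182% to 0.356%. Most of the share in the wire libraries and in microbrush 4, 6 and 8 is MYL9.

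The myosin heavy chain MYH11 was also uneven on the brush and low on the wire, but its wire values were not even. In the kidney microbrush libraries (1, 2, 3, 5 and 10) it stood at 20655, 24434, 4924, 70839 and 3598 CPM, and in the liver microbrush libraries (4, 6, 7, 8 and 9) at 232, 245, 34648, 724 and 54179.7 CPM. The wire libraries gave 753, 258, 45.1 and 39.1 CPM, the aorta libraries 21642, 25698, 28475 and 35436 CPM, and the blood libraries 4.74, 0 and 13.1 CPM. The liver libraries fell into a high pair, microbrush 7 and 9, and 3 low libraries whose values lie between 232 and 724 CPM, within the range of the wire. All 5 kidney libraries were above every wire library. By edgeR the log2 fold change was 6.06 on the brush against the wire (SE 1.70, adjusted p = 0.502), -0.13 on the brush against aorta (SE 1.15) and -6.12 on the wire against aorta (SE 1.05, adjusted p = 0.0104). The call on the wire against aorta was lost without aorta 2, where the log2 fold change was -6.28 (adjusted p = 0.0501 by edgeR). With all libraries in a common fit MYH11 was not called either.

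The regulatory light chain MYL9 followed another order. It ranged from 368 to 3643 CPM on the brush with a median of 1760.1 CPM, and measured 1765, 1727, 2997 and 1419 CPM on the wire. The aorta libraries gave 692, 575, 692 and 1103 CPM, and the blood libraries 182, 0 and 135 CPM. The wire values lay inside the range of the brush, where 3 libraries were below every wire and 1 above, and every wire library was above every aorta library, the reverse of MYH11. Liver microbrush libraries averaged 2389 ± 855 CPM and kidney ones 1169.7 ± 947 CPM for MYL9 (SD, n = 5 each), with overlapping ranges. The log2 fold change was -0.52 on the brush against the wire (SE 0.94), and became 0.29 without wire 3. On the wire against aorta MYL9 had a log2 fold change of 2.39 (SE 0.71, adjusted p = 0.111 by edgeR), and DESeq2 gave 2.15 with an adjusted p of 0.0411.

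MYLK, the kinase, lay between these patterns. Its values were 88.1 to 2758 CPM on the brush (median 558 CPM), 125, 168, 199 and 128 CPM on the wire, 908, 930.1, 1113 and 1571 CPM in aorta, and 22.1, 0 and 42.5 CPM in blood. The wire libraries differed little among themselves, and all 4 were below every aorta library. The log2 fold change of MYLK was 1.93 on the brush against the wire (SE 1.03) and -1.92 on the wire against aorta (SE 0.62, adjusted p = 0.150 by edgeR).

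Among the genes of the actin filament, ACTA2 and CNN1 moved like MYH11. ACTA2 ranged from 0 to 10853 CPM on the brush with a median of 1378 CPM, against 115.3, 17.3, 31.8 and 27.7 CPM on the wire. In aorta ACTA2 stood at 1958, 2231, 1721 and 3993 CPM, and in blood at 6.60, 0 and 44.3 CPM. Microbrush 5, 7 and 9 exceeded the highest aorta library, and microbrush 4 had no ACTA2 count at all. The log2 fold change of ACTA2 was 5.62 on the brush against the wire (SE 1.73, adjusted p = 0.628 by edgeR) and -4.98 on the wire against aorta (SE 0.82, adjusted p = 0.0092). CNN1 ranged from 0 to 2480.2 CPM on the brush (median 262 CPM), and was 37.2, 0, 4.85 and 3.60 CPM on the wire and 415, 386, 332 and 749 CPM in aorta. It lacked counts in microbrush 4 and wire 2, where 0 counts allow up to 1.24 and 1.16 CPM. Its log2 fold change on the wire against aorta was -4.73 (SE 1.17, adjusted p = 0.0511 by edgeR), and without wire 1, the library with most CNN1 among the wires, it was -6.11 with an adjusted p of 0.0364.

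LMOD1 and SMTN had their highest group means in aorta, as MYH11 and MYLK did. For LMOD1 and for SMTN, 9 of the 10 microbrush libraries lay below every aorta library. LMOD1 ranged from 2.47 to 3218 CPM on the brush (median 665 CPM) and was 34.7, 26.6, 0.899 and 38.5 CPM on the wire, 2076, 2798, 4904 and 2755 CPM in aorta and 10.2, 0 and 22.3 CPM in blood. Microbrush 5 was the only brush library inside the aorta range. The log2 fold change of LMOD1 was 5.10 on the brush against the wire (SE 1.44, adjusted p = 0.502 by edgeR), -1.46 on the brush against aorta (SE 1.02) and -6.49 on the wire against aorta (SE 0.93, adjusted p = 0.0058). SMTN ranged from 57.4 to 2033 CPM on the brush (median 413 CPM) and was 86.8, 143, 83.8 and 29.8 CPM on the wire, 1835, 1846, 3707 and 1960.0 CPM in aorta and 5.85, 0 and 1.86 CPM in blood. Here too only microbrush 5 reached the aorta range. SMTN had a log2 fold change of -3.85 on the wire against aorta (SE 0.71, adjusted p = 0.0147 by edgeR), and the call ended without aorta 1 (adjusted p = 0.0577) or without aorta 2 (adjusted p = 0.0567).

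TAGLN ranged from 109.5 to 4919.6 CPM on the brush (median 745 CPM), and stood at 88.0, 261, 195 and 127 CPM on the wire, 749, 767, 565 and 1481 CPM in aorta and 13.0, 0 and 8.07 CPM in blood. Wire and aorta did not overlap, while 5 of the 10 microbrush libraries (3, 4, 6, 8 and 10) lay within the wire range. The log2 fold change of TAGLN was 2.53 on the brush against the wire (SE 1.16) and -1.53 on the wire against aorta (SE 0.67), with an adjusted p of 0.369 by edgeR in the second comparison.

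Desmin, like MYL9, was above every aorta library in 7 of the 10 microbrush libraries. DES was 647, 721, 179, 1530.2 and 149 CPM in the kidney microbrush libraries (1, 2, 3, 5 and 10), and 8.65, 8.93, 529.9, 23.1 and 1081 CPM in the liver ones (4, 6, 7, 8 and 9). It was 64.1, 10.8, 1.26 and 8.73 CPM on the wire, 72.0, 78.8, 113.5 and 52.0 CPM in aorta, and 3.40, 0 and 23.6 CPM in blood. Each kidney microbrush library was above every aorta library, whereas 3 of the 5 liver libraries were below every one of them. The log2 fold change of DES on the brush against aorta was 2.93 (SE 1.17, unadjusted p = 0.0183, adjusted p = 0.704 by edgeR), and on the wire against aorta it was -1.32 (SE 0.83, adjusted p = 0.681). Wire 1, at 64.1 CPM, had the highest DES of its group, and without it the second log2 fold change was -2.92 (adjusted p = 0.0490). Heart and skeletal muscle are the other tissues known for desmin. Of their 14 markers 8 were in the table, and they summed to 11.2 to 407 CPM on the brush, 10.9 to 105.5 CPM on the wire, 113.9 to 263 CPM in aorta and 0 to 163 CPM in blood. TNNT2, cardiac troponin T, was at 0 in all 10 microbrush libraries, and also in every wire and blood library. Other markers of the list had counts on the brush: MYH6 reached 52.4 CPM in microbrush 3 and MYL2 56.8 CPM in microbrush 10. The sum was highest in microbrush 3 and 10, at 380 and 407 CPM, above their DES, and was 63.2 and 11.2 CPM in microbrush 5 and 9, the libraries with most DES. Markers of hepatocytes, an unrelated cell type, were also highest on the brush in microbrush 3 and 10, both from kidney, at 474 and 459 CPM. The part of heart and skeletal muscle in the DES values was not tested.

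**Figure D2:**
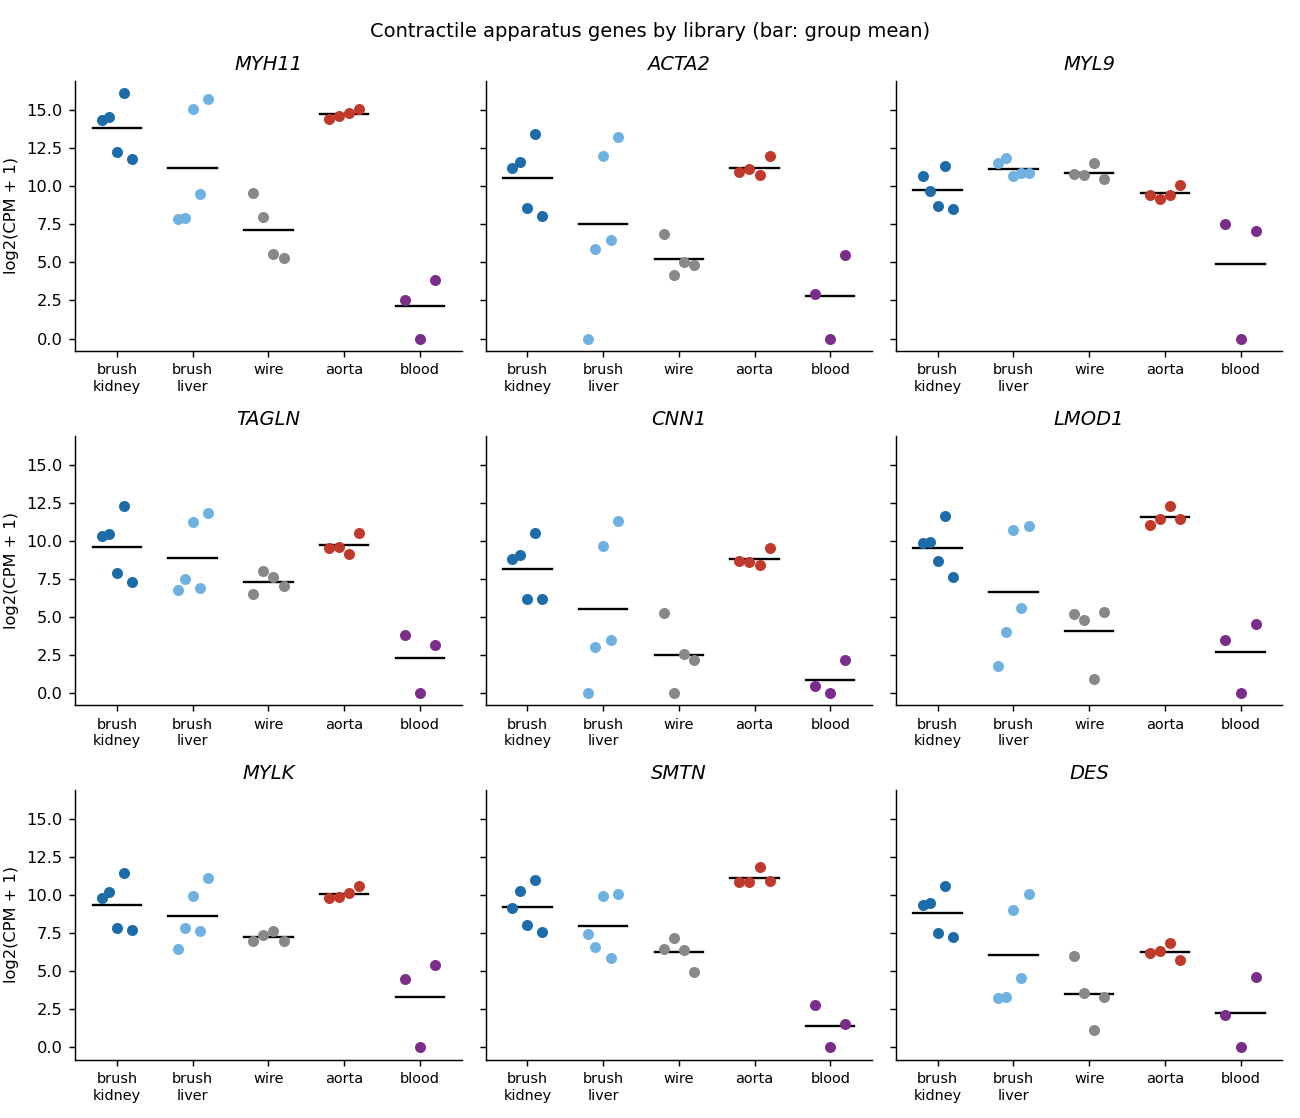
Level of each of the 9 genes as log2(CPM + 1), 1 point per library and a bar at the group mean, with the microbrush libraries split by organ. Aorta is tight in every panel, and the brush is spread more widely than aorta in each, least so for MYL9. The wire exceeds aorta for MYL9, and the kidney microbrush points exceed aorta for DES.

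For the microbrush against the bare wire, the comparison that asks what the brush adds, 8 of the 9 genes had positive fold changes, as did 57.6% of all genes, with a median log2 fold change of 4.33 over the members and 0.17 over all genes tested. Other scalings moved that median of all genes, to 0.60 with relative log expression (RLE) factors and 0.79 with library totals alone. By edgeR 0 of the 9 genes passed an adjusted p under 0.05, where 0% of the 16439 genes tested passed. At an unadjusted p under 0.05, 7 of the 9 were higher on the brush, against 2.66% of all genes; the exceptions were MYL9 and MYLK. DESeq2 called 5 of the 9 higher (MYH11, ACTA2, CNN1, LMOD1 and DES), against 0.589% of the genes it tested. Not 1 of the 9 genes separated brush from wire without overlap, as 0.0382% of all genes did with higher and 0.0109% with lower brush values. Within pig 248K edgeR called MYH11 (6.04, adjusted p = 0.0237) and LMOD1 (5.29, adjusted p = 0.0430) higher on the brush, against 0.255% of all genes, and within pig 243K it called 0 members, with a log2 fold change of 6.10 for MYH11 (SE 2.96). MYH11 had a log2 fold change of 7.23 in kidney (SE 2.51) and 5.32 in liver (SE 1.78), with 0 members called in either organ. Without microbrush 4 edgeR again called 0 members.

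Against aorta, the microbrush libraries scattered to both sides. The members' log2 fold changes ran from -1.57 for SMTN to 2.93 for DES, with a median of 0.56, against -0.17 over all genes. By edgeR 0 of the 9 passed, where 0.125% of all genes did, and DES alone was higher at an unadjusted p under 0.05, against 3.33% of all genes. DESeq2 called 0 of the 9, where it called 0.697% of its genes higher and 0.371% lower. The signs of MYH11 and MYLK turned when aorta 4 was left out, to 0.12 and 0.26. Not 1 of the 9 genes separated brush from aorta, as 0.614% of all genes did with higher and 1.36% with lower brush values. The standard errors here were 0.83 to 1.29 log2 units, so differences of several fold in either direction could not be told from none.

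On the wire against aorta, 8 of the 9 genes had negative fold changes, as did 60.5% of all genes, with a median of -3.85, against -0.29 over all genes, -0.54 with RLE factors and -0.94 with library totals alone. By edgeR 4 fell: LMOD1, MYH11, ACTA2 and SMTN, where 0.764% of all genes fell. Without overlap 7 of the 9 were lower on the wire, against 21.3% of all genes, and MYL9 was higher, against 3.3% of all genes. DES overlapped. Leaving out single libraries gave from 2 to 6 calls, with 2 (ACTA2 and LMOD1) without aorta 2, where 0.129% of all genes were lower, 3 without aorta 1, against 0.141%, and 6 without wire 1, against 0.536%. With all 21 libraries in a common fit LMOD1 was the 1 call left, against 0.318% of all genes lower, and DESeq2 called 7, of which 6 were lower, against 4.43% of its genes, and MYL9 was higher, against 3.03%.

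**Figure D3:**
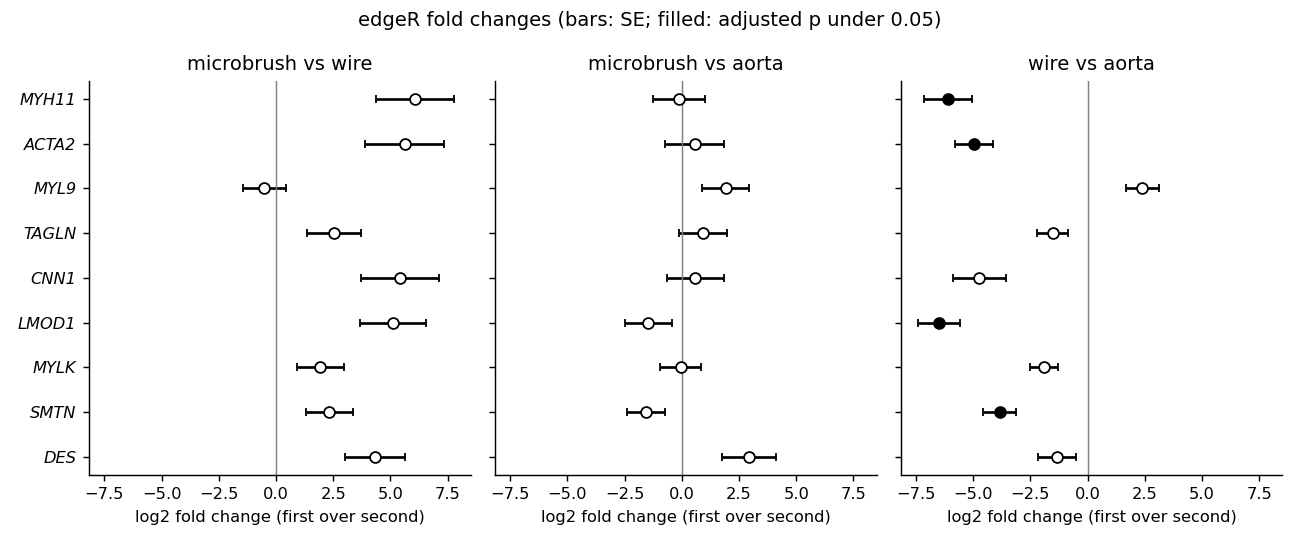
Log2 fold changes of the 9 genes by edgeR in 3 comparisons (points, first-named group over the second), with standard errors as bars; filled points have an adjusted p under 0.05. The 4 filled points are MYH11, ACTA2, LMOD1 and SMTN on the wire against aorta, and MYL9 is the gene on the other side of 0 from the rest in the outer panels.

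Blood held the lowest mean of every member. On the brush against blood the log2 fold changes ran from 4.87 for MYL9 to 12.11 for MYH11. By edgeR 0 of the 9 passed, where 0% of all genes were called higher, although all 9 had an unadjusted p under 0.05, against 3.86% of all genes, and DESeq2 called all 9, against 5.95%. MYH11, MYL9, TAGLN, MYLK and SMTN were higher on the brush without overlap, against 0.69% of all genes. Without microbrush 4 and blood 2 the fold change of MYH11 was 11.53 (SE 3.25) and edgeR still called 0 members. On the wire against blood the same 5 genes did not overlap, against 1.82% of all genes, and log2 fold changes ran from 1.64 for LMOD1 to 6.02 for MYH11. There edgeR called 0 members, where 0% of all genes passed, 4 were higher at an unadjusted p under 0.05, against 0.994%, and DESeq2 called 5, against 3.33%. Without blood 2 edgeR called TAGLN and SMTN, against 0.0486% of all genes. In aorta against blood all 9 genes were higher without overlap, against 16.2% of all genes, with log2 fold changes from 2.50 for MYL9 to 11.86 for MYH11. By edgeR 0 of them passed, where 0.985% of all genes were called higher, and 8 did at an unadjusted p under 0.05, against 6.72%, while DESeq2 called 8, against 5.08%. This count moved with blood 2 and with the scaling. With blood 2 kept, library totals alone gave 9 calls, where 1391 of 16046 genes were called higher. RLE factors gave 3, where 271 of 16046 genes were. Without blood 2 edgeR called all 9, against 9.82% of all genes, with MYH11 at 11.55 (adjusted p = 2.73e-16) and MYL9 at 1.94 (adjusted p = 0.0143).

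Kidney and liver microbrush libraries were not told apart by these genes. The log2 fold changes of kidney against liver ran from -1.47 for MYL9 (SE 1.03) to 0.89 for DES (SE 1.14), with a median of 0.30. By edgeR 0 of the 9 passed, where 0% of all genes did, 0 had an unadjusted p under 0.05, against 0.0999% of all genes higher and 1.49% lower, and DESeq2 called 0. No member separated the organs without overlap, as 1.09% of all genes did with higher and 0.0324% with lower kidney values. The sign of 7 of the 9 turned on leaving out a library or on taking a single pig, with MYL9 and DES as the exceptions. In pig 243K alone the log2 fold change of MYH11 was -0.20, and in both pigs the high and the low liver libraries occurred together (6 and 9 in pig 243K; 4, 7 and 8 in pig 248K).

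Within the 10 microbrush libraries all members but MYL9 varied together. Microbrush 5 was the highest library for 7 of the 9 genes, with microbrush 6 highest for MYL9 and microbrush 9 for CNN1. Microbrush 4 and 8 were each among the 3 lowest for 8 of the 9. From the lowest to the highest microbrush library MYH11 spanned 306-fold, DES 177-fold, TAGLN 44.9-fold, SMTN 35.4-fold, MYLK 31.3-fold and MYL9 9.91-fold, and LMOD1 spanned 1303-fold. The sparse microbrush 4 was the lowest for MYH11, ACTA2, TAGLN, CNN1, LMOD1, MYLK and DES, and without it LMOD1 spanned 216-fold, MYLK 13.8-fold and MYH11 289.5-fold. In aorta the same genes spanned 1.64-fold to 2.62-fold. Over the 10 libraries the 28 pairs of members without MYL9 had Pearson correlations of log2(CPM + 1) from 0.79 to 0.99 with a median of 0.92, and the 8 pairs with MYL9 had correlations from -0.28 to 0.17. These are descriptions: the libraries share 2 pigs, and all 9 genes share each library's depth.

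MYH11 was a steady part of the members in kidney and aorta. It made up 69.3% to 71.1% of the member counts in the 5 kidney microbrush libraries and 68.4% to 72.8% in the 4 aorta libraries, although microbrush 3 and 10 held only 0.710% and 0.519% of their counts in the members. The parts of other genes differed: DES made up 1.53% to 2.88% in the kidney microbrush libraries and 0.106% to 0.273% in aorta, and LMOD1 2.83% to 5.83% in kidney and 5.61% to 11.8% in aorta. In the liver libraries MYH11 made up from 5.46% to 72.4%, in the wire libraries from 1.27% to 24.5%. MYL9 was the larger part in the wire libraries and in microbrush 4, 6 and 8: its part of the member counts was 2.38% to 82.6% on the brush with a median of 5.71%, 57.5% to 84.2% on the wire and 1.63% to 2.28% in aorta. It was 73.4% and 45.9% in blood 1 and blood 3.

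Ratios to MYH11 within a library do not depend on scaling between libraries, and were taken in the 20 libraries with at least 100 member counts. Desmin differed most from aorta. The log2 ratio of DES to MYH11 was -6.03 to -4.59 on the brush, with a median of -4.97, against -9.41 to -7.97 in aorta, with a median of -8.29, a difference of 3.31 without overlap. TAGLN, at -4.55 to -0.47 on the brush and -5.66 to -4.58 in aorta, and MYL9, at -4.88 to 3.90 on the brush and -5.48 to -4.97 in aorta, were also higher on the brush without overlap, though both narrowly. These 3 of 8 genes compare with 0.689% of all genes whose ratio to MYH11 was higher on the brush without overlap. LMOD1 had a median ratio of -4.41 on the brush and -3.29 in aorta, and SMTN -4.29 on the brush and -3.68 in aorta, both with overlap. The high DES ratio was shared by both organs, with medians of -5.00 in kidney and -4.95 in liver. The level of DES spanned 177-fold over the 10 microbrush libraries, while its ratio to MYH11 stayed between those bounds. On the wire against aorta MYL9, TAGLN, MYLK and DES had higher ratios without overlap, but so did 57.8% of all genes, as MYH11 was low on the wire.

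**Figure D4:**
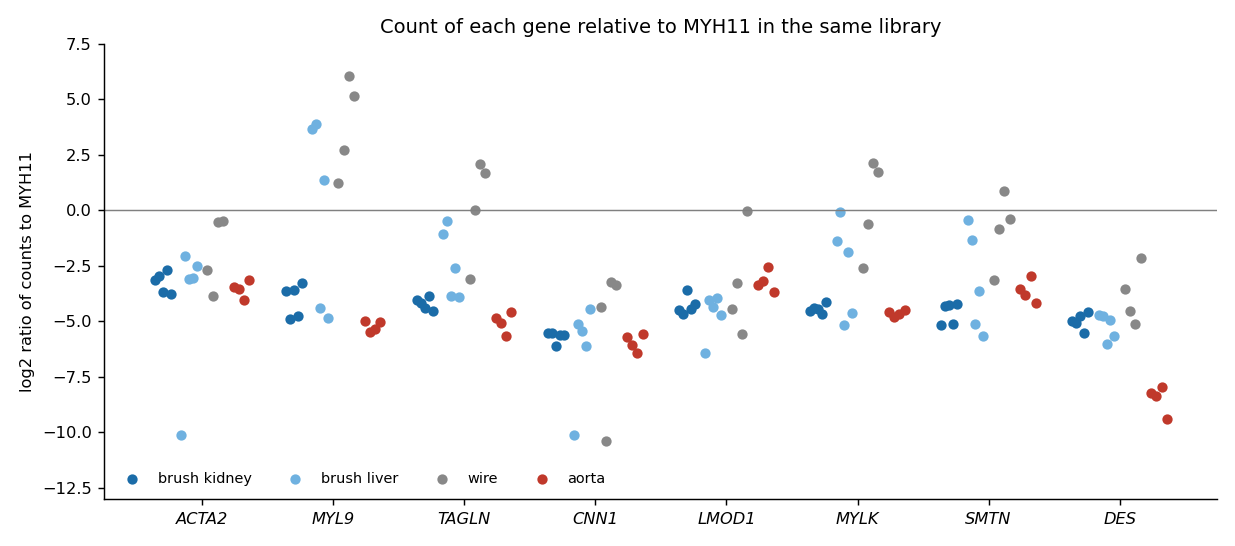
Log2 ratio of the counts of 8 genes to those of MYH11 in the same library, for the 10 microbrush, 4 wire and 4 aorta libraries, 1 point each. The microbrush points for DES lie at -6.03 to -4.59, above all aorta points at -9.41 to -7.97; points below -10 for ACTA2 and CNN1 are libraries with 0 counts of those genes.

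MYL9 was high in the libraries that held most platelet markers, where the other members were low. Of the 8 platelet markers 5 were in the table (PPBP, GP9, GP6, TUBB1 and TREML1), and their summed level was 12.3 to 4188 CPM on the brush (median 542 CPM), 1620.0 to 3918 CPM on the wire, 35.9 to 81.2 CPM in aorta and 0 to 277 CPM in blood. The 3 microbrush libraries with most platelet RNA, at 3944, 4188 and 2571 CPM, were microbrush 4, 6 and 8, those with the least MYH11, where MYL9 was 2911, 3643 and 1872 CPM. GP6 was at 0 in microbrush 4, GP6 and TREML1 were at 0 in microbrush 9, and all 5 were at 0 in blood 2. A library with few platelet markers could also hold much MYL9: microbrush 9 had 1864 CPM of MYL9 beside 12.3 CPM of platelet markers and 54179.7 CPM of MYH11. Microbrush 5, with most MYH11, had 2593 CPM of MYL9 beside 170 CPM of platelet markers. The part of platelets in the MYL9 values was not tested. Over 20 libraries MYL9 had a Pearson correlation of 0.14 with the mean of the other 8 members, while each of the other 8 had one of 0.84 to 0.97, over libraries that share pigs, groups and depth. The 8 genes closest to MYL9 over the same libraries, a list drawn up after its values were seen, were TIMP3, ILK, ARHGAP10, LPP, TLN1, ITGB1, ZYX and PDE3A, with correlations from 0.89 to 0.84. TLN1 (talin), ILK (integrin-linked kinase), ITGB1 (integrin beta 1) and ZYX (zyxin) encode proteins of cell adhesions.

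**Figure D5:**
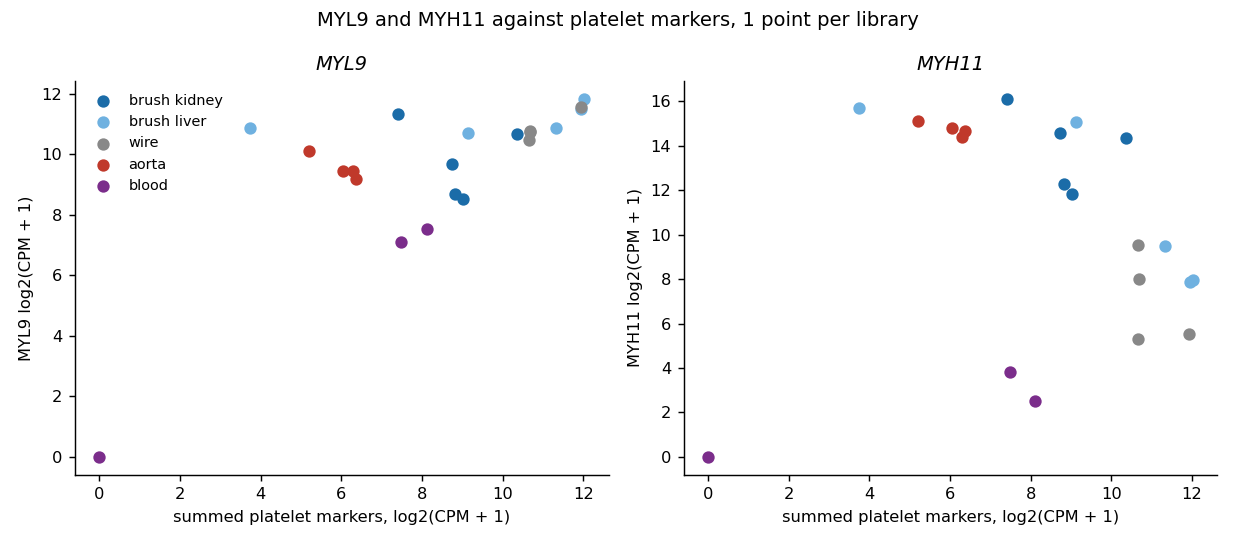
Level of MYL9 (left) and MYH11 (right) against the summed level of 5 platelet markers, all as log2(CPM + 1), 1 point per library. MYL9 is high in the wire libraries and in microbrush 4, 5 and 6 and lower in aorta, whereas MYH11 is low in the wire libraries and in microbrush 4, 6 and 8; the point at the origin is blood 2.

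Other genes of the contractile machinery were examined through lists of known members, drawn up like the 9 with earlier results of these data known. Of the other actins, tropomyosins, calponins and caldesmon, 11 of 13 were in the table. On the wire against aorta 10 were tested, where 2.8% of all genes were called higher and 0.764% lower. By edgeR TPM2, a muscle tropomyosin, was lower (-3.91, adjusted p = 0.0066). Called higher were TPM4 (6.09, adjusted p = 0.0076), ACTB (4.40, adjusted p = 0.0177) and ACTG1 (3.62, adjusted p = 0.0360), the tropomyosin and actins of non-muscle cells and platelets. TPM4 had 587 to 21654 CPM on the brush, 4425 to 15545 CPM on the wire and 232 to 333 CPM in aorta. Its highest brush values, like those of MYL9, were in microbrush 4 and 6. Of the partners and regulators of myosin, 17 of 20 were tested there: MYL12A, a regulatory light chain of non-muscle cells, was higher on the wire (4.84, adjusted p = 0.0173), and PPP1R12B, a subunit of the phosphatase that reverses MYLK, was lower (-3.30, adjusted p = 0.0476).

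Dense bodies and attachment plaques anchor the actin filaments, and 15 of the 17 genes listed for them were tested on the wire against aorta. By edgeR 0 were higher on the wire, against 2.8% of all genes, and 0.764% of all genes were lower. Those lower included CSRP1, a muscle protein of the actin cytoskeleton (-3.11, adjusted p = 0.0170), VIM, which encodes vimentin (-3.40, adjusted p = 0.0279), and SYNPO2, an actin-bundling protein (-4.38, adjusted p = 0.0436). Not 1 of the 7 calcium and ion channel genes tested or of the 9 transcription factors passed there, with medians of -2.28 and -0.48, against -0.29 over all genes.

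On the brush against the wire edgeR called 0 genes of these lists. All 7 calcium and ion channel genes had positive log2 fold changes (median 2.05), as did 12 of 15 dense body genes (median 2.02), against a median of 0.17 over all genes. The positive ones were 8 of 11 in the thin filament list (median 0.51), 11 of 17 among the myosin regulators (median 0.40) and 6 of 9 among the transcription factors (median 0.41). The dense body genes with the smallest p-values were NEXN, which encodes the actin-binding protein nexilin (5.56, SE 1.62, adjusted p = 0.584), and SYNPO2 (5.10, SE 1.61, adjusted p = 0.669). NEXN had a median of 179 CPM on the brush, 6.81 CPM on the wire and 241 CPM in aorta. On the brush against aorta edgeR also called 0 genes of these 5 lists, with medians of -0.20 for calcium and ion channel genes, 0.37 for dense body genes, 0.46 for the thin filament, 0.91 for myosin regulators and -0.14 for transcription factors. Kidney against liver gave 0 calls in the same 5 lists.

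Markers of other cells of the artery wall were summed in the same way. The 8 fibroblast markers summed to 81.5 to 52559 CPM on the brush (median 6817 CPM), 12.0 to 409 CPM on the wire, 3779 to 6636 CPM in aorta and 0 to 100.2 CPM in blood. DCN and LUM, defining markers of fibroblasts, were at 0 in microbrush 4. The 7 pericyte markers summed to 0 to 4264 CPM on the brush (median 1044 CPM), 1.89 to 202 CPM on the wire, 1394 to 3199.7 CPM in aorta and 0 to 201 CPM in blood, and all 7 were at 0 in microbrush 4. All 8 fibroblast and all 7 pericyte markers had positive log2 fold changes on the brush against the wire (medians 2.43 and 3.46), with 0 called by edgeR. The highest sums were in microbrush 9 for fibroblasts and microbrush 5 for pericytes, which were also the libraries with most MYH11. Single markers had other orders: DPT, a fibroblast marker, was 59.4 and 56.8 CPM in microbrush 3 and 10, and 4.11 and 2.39 CPM in microbrush 5 and 9, and KCNJ8, a pericyte marker, was 107.1 and 107.4 CPM in microbrush 3 and 10 and 9.05 CPM in microbrush 5. On the wire against aorta edgeR called PDGFRB, a growth factor receptor of pericytes (-6.38, adjusted p = 0.0157), and COL1A1, a collagen chain made by fibroblasts (-4.47, adjusted p = 0.0175), lower beside the 4 contractile genes, and PPBP, a platelet chemokine, higher (5.78, adjusted p = 0.0073). Pericytes share several of these genes with smooth muscle, and the part of either cell type in the members' values was not tested. Leukocyte markers (8 of 8 in the table) summed to 90.0 to 852 CPM on the brush, 575 to 770.1 CPM on the wire and 148 to 257 CPM in aorta, and erythroid markers (7 of 8) to 145 to 3452 CPM on the brush, 2077 to 32778 CPM on the wire and 67.8 to 110.3 CPM in aorta. Hepatocyte markers (6 of 6) reached at most 474 CPM and tubule markers of the kidney (6 of 6) at most 218 CPM in a microbrush library.

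Over the 20 libraries with at least 100000 counts, the 8 genes of 10249 candidates whose level ran closest to the mean of the 9 members were ITGA7, FAM13C, CSRP1, MAP1B, COL3A1, DAAM2, ADIRF and DZIP1, with Pearson correlations of log2(CPM + 1) from 0.96 to 0.94. The libraries share pigs, groups and depth, so the correlations carry no test. ITGA7, the integrin chain by which muscle cells bind laminin, had 0 to 502 CPM on the brush, 0 to 3.47 CPM on the wire, 140.4 to 220 CPM in aorta and 0.566 to 1.86 CPM in blood. COL3A1, a fibrillar collagen chain, had 50.6 to 22796 CPM on the brush, 1.80 to 138 CPM on the wire and 1581 to 3235 CPM in aorta. For both genes, as for MYH11, the brush values spanned from the wire range to beyond the highest aorta library.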

How the data were processed

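Bulk RNA was sequenced from 21 pig libraries. Per the labels, the RNAdvance Tissue kit was used at reduced volumes for extraction and SMARTer Pico for the libraries. The authors deposited estimated counts for Ensembl genes, which are not scaled between libraries and are the values analysed. Per the submitters' processing notes, Salmon and DESeq2 were used with genome build Sscrofa11.1; versions, annotation release and strand setting are not given in the sources used here. Of the 24358 genes, 14692 had a symbol in the supplied gene names. No gene lengths were used, so levels are compared between libraries and not between genes.

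Counts were rounded (11.9% were not whole). For each comparison its own libraries were fitted in edgeR 4.0.16 (R 4.3.3) with filterByExpr at a minimum count of 10, TMM scaling and the robust quasi-likelihood test, adjusted over all genes by Benjamini-Hochberg and read at 0.05. All 9 members passed the filter in all 7 comparisons. DESeq2 1.42.0 was an alternative, with others listed in the closing section. CPM divides by library totals. Overlap counts used genes with a mean of at least 1 CPM, and ratios an offset of 0.5 counts. Intervals are Wilson 95%, a library at 0 has a limit of 3 counts, and both cover counting error only. The tests were also run on simulated counts with a fixed spread and independent libraries. That setting leaves out shared pigs and uneven spread, so it does not measure the error rates in these data. Libraries of the same group all differed beyond sampling noise.

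The members and lists were chosen with earlier results of these data known. All 9 members are named, with up to 4 genes of each other list by smallest p per comparison, 5 markers and the 8 genes most like the members' mean; TPM4 and NEXN levels follow from these, and the list for MYL9 was added after seeing its values. A result of the dense body list is not reported here.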

Additional observations from a re-analysis of the deposited data

Results flagged for a closer look

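In 90 groups of values (the levels of the 9 genes and their ratios to MYH11 within each group of libraries), 8 had a library whose distance from the rest was large for the size of the group, judged by Dixon's 95% critical values; chance gives about 1 in 20. Microbrush 4, the liver library with counts for 3831 genes, had log2 ratios to MYH11 of -10.14 for ACTA2 (others -3.78 to -2.05), -10.14 for CNN1 (others -6.11 to -4.45) and -6.44 for LMOD1 (others -4.73 to -3.57); the first 2 rest on 0 counts. Among the liver libraries alone its ACTA2 ratio of -10.14 also stood apart. Wire 2 had a CNN1 ratio of -10.39 with 0 counts of CNN1 (other wires -4.34 to -3.21). Microbrush 3 had a CNN1 ratio of -6.11 among the kidney libraries (others -5.63 to -5.51). Wire 3 had an LMOD1 level of 0.925 on the log2(CPM + 1) scale (other wires 4.79 to 5.30). Aorta 3 had a SMTN level of 11.86 (other aorta libraries 10.84 to 10.94).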

How the results depend on the processing

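The members' fold changes kept their direction and their side of the threshold in 724 alternative values, gained a call in 86, lost one in 6 and turned in 28. All 48 group means of the ratios to MYH11 moved by less than 1 SD with an offset of 5 counts in place of 0.5. The counts of called members changed as follows. With DESeq2 they were 5 for brush against wire, 9 for brush against blood, 7 for wire against aorta, 5 for wire against blood and 8 for aorta against blood. With all libraries in a common fit they were 6 for brush against blood, 1 for wire against aorta and 4 for aorta against blood. In the directions of those calls 52, 56 and 60 of 17616 genes were called, in that order. Pig 248K alone gave 2 for brush against wire. Without libraries under 5000 genes the counts were 2 for wire against blood and 9 for aorta against blood. RLE factors gave 3, library totals alone 9 and no filter 3 for aorta against blood. There 271 of 16046, 1391 of 16046 and 323 of 21620 genes were called higher. Leaving out single libraries gave 2 to 6 for wire against aorta, 0 to 2 for wire against blood and 0 to 9 for aorta against blood. The share of counts in the members on the wire was 0.460% when haemoglobin and 2 abundant unnamed identifiers were left out of the total. Directions that turned were all of uncalled values: MYL9 on brush against wire in pig 243K alone (0.94) and without wire 3 (-0.83 to 0.29 over the wires left out); MYH11 (0.020) and MYLK (0.081) on brush against aorta without libraries under 5000 genes, MYLK in the common fit (0.0043), and both without aorta 4 (-0.26 to 0.12 and -0.19 to 0.26 over the aortas left out). For kidney against liver, pig 243K alone turned MYH11 (-0.20), ACTA2 (-0.49), TAGLN (-0.35) and MYLK (-0.50), pig 248K alone turned CNN1 (0.67), and the run without microbrush 4 turned ACTA2 (-0.12) and TAGLN (-0.084). Leaving out single libraries gave -0.45 to 1.64 for MYH11, -0.91 to 1.82 for ACTA2, -0.80 to 1.20 for TAGLN, -1.27 to 1.49 for CNN1, -0.34 to 1.51 for LMOD1, -0.45 to 1.27 for MYLK and -0.049 to 1.25 for SMTN. The causes were not tested. With the pig as a replicate block, 0 members were called in each of the 4 comparisons that share pigs, as without it; replicate numbers pair nothing. Calls over all genes also moved, from 62 to 1515 for wire against aorta around the 546 reported. The spread between microbrush libraries, 10 from 2 pigs, limits what could be called, and the aorta comes from a single pig.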
